A study of Rattus norvegicus with 10 samples.

Results

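The genes described here carry secretory proteins from the endoplasmic reticulum to the cell surface: Rab and Arf GTPases, SNAREs, SNARE regulators, coat proteins and proteins of secretory granules. The list held 59 genes and was applied by gene symbol, and it was drawn up with earlier results of these data known. On the array, 82 probe sets carried the symbol of 52 of these genes, out of 4736 genes named by a single symbol on the array. The probe sets analysed here carried no symbol for Rab27b, Vamp7, Vamp8, Stx2, Stxbp3, Sec22b or Chga. A filter on dim probe sets left 70 probe sets of 46 genes for testing, and no tested probe set represented Rab2a, Stx3, Syt1, Syt7, Chgb or Cpe.

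Levels of messenger RNA were measured in 10 rat lacrimal glands with 1 Affymetrix array per gland. The denervated glands (n = 5) were collected 7 days after the greater superficial petrosal nerve had been sectioned. This nerve carries the parasympathetic supply of the gland. The control glands (n = 5) were 3 contralateral glands of animals with that nerve section, taken 7 days after surgery, 1 gland taken 7 days after a sham operation and 1 gland of an unoperated animal. The labels give no strain, sex or age. Titles call the 3 glands contralateral, whereas their descriptions place them on the experimental side, and the titles were followed. The labels do not say that glands came from separate animals, and p-values here reflect spread between samples that may be technical only.

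Lacrimal acinar cells make tear proteins on the rough endoplasmic reticulum, pass them through the Golgi complex in COPII and COPI coated carriers, and store them in granules under the apical membrane. Parasympathetic nerves release acetylcholine, which raises calcium in these cells and triggers fusion of granules with the membrane. Rab GTPases give each compartment its identity and recruit tethers, SNAREs of the vesicle and the target membrane zip together to drive fusion, and NSF with its SNAP adaptor takes the spent SNARE complexes apart. Whole glands were measured, so fewer cells of a type and less RNA per cell cannot be told apart.

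Promoter sequences are shown for 5 genes picked by their results below, of which Rab12 was higher in denervated glands and the others lower. They are the 250 bases before each gene's start in RefSeq's GRCr8 annotation, 5′ to 3′ on the gene's strand. Capitals mark ACGTGG, the core of the element bound by XBP1, the transcription factor that enlarges the secretory pathway. Both strands were searched, the other strand reading CCACGT. Ica1 lies at chr4:37770906-37771155 on the minus strand, Tmed10 at chr6:110757744-110757993 on the minus strand and Napa at chr1:85915185-85915434 on the plus strand. Pam lies at chr9:105570118-105570367 on the plus strand and Rab12 at chr9:113953617-113953866 on the minus strand.
Ica1: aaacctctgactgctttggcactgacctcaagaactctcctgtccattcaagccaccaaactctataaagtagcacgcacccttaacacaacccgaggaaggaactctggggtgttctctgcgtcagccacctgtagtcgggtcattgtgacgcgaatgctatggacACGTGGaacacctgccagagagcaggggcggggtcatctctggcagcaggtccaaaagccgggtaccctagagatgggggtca
Tmed10: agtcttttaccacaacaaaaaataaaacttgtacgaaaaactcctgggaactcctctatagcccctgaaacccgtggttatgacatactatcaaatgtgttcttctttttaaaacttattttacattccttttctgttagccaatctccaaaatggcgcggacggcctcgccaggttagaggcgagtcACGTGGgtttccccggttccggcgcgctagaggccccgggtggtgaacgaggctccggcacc
Napa: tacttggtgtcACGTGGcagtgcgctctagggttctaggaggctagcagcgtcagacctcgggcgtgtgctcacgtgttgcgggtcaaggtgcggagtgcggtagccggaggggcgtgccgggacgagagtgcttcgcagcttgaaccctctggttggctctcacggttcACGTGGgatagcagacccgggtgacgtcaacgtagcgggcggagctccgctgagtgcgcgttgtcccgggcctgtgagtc
Pam: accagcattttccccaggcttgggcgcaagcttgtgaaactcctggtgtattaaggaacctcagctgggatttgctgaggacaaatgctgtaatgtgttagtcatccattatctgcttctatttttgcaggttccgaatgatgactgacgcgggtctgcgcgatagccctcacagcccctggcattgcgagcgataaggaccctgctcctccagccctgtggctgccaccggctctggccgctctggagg
Rab12: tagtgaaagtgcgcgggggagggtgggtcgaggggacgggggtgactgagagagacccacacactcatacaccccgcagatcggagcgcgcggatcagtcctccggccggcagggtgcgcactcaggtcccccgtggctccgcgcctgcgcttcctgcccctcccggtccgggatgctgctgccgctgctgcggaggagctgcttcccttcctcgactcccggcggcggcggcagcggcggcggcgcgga
In Ica1 the motif began 83 bases before the start and in Tmed10 it began 62 bases before. Napa held it at 239 and at 80 bases before the start, and neither Pam nor Rab12 held these letters in the window. Each marked stretch followed a c and so read CACGTGG, and these letters alone do not single out XBP1.

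Over the list, 52 of the 59 genes had a promoter entry, and Syt7, Rab26, Rab2a, Vamp7, Vamp3, Snap25 and Chga had none. ACGTGG lay in the window of 16 of these 52 promoters (30.8%), against 1889 of 27457 promoters of all genes (6.88%). The 16 genes were Arf1, Arf4, Copb1, Copb2, Cpe, Ica1, Napa, Nsf, Rab1a, Rab3b, Rab5a, Scamp1, Stx5, Stxbp2, Tmed10 and Tmed2. They included Arf, coat and cargo receptor genes of the early secretory pathway, the Golgi syntaxin Stx5 and both proteins that take SNARE complexes apart. Gosr2 and Rab3d, for which all denervated glands lay below all controls, were not among them. Those of the 16 that were tested differed on the log2 scale by -1.33 (Nsf) to 0.17 (Stxbp2) between denervated and control glands. Copb1 and Copb2 were at -0.03 and Rab3b at 0.03. A link between the motif and these differences was not tested. The promoters of the list had a median GC content of 61.2%, against 52% over all promoters, and this difference was not corrected for. The letters CATATG, an E-box bound by the acinar cell factor Bhlha15 (Mist1), were found in 1 of the 52 windows (1.92%, Stx2), against 3.5% of all promoters. These matches describe letters in a window and not bound sites.

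Values below are log2 probe set intensity, with values under 156.2 (log2 7.29) raised to that floor, and levels of different probe sets are not compared. Array median intensity ran from 554 to 979. Precision was limited by the number of arrays. Standard errors of log2 differences had a median of 0.37 over tested probe sets of the list, against 0.50 over all tested probe sets. Where shares of the list are set beside shares of all tested probe sets below, this gap in standard error was not corrected for. The acinar transcription factor Bhlha15 stood between 14.67 and 16.65 in 8 glands, at 12.12 in denervated 2 and at 12.63 in denervated 5. The summed levels of marker lists also set these 2 glands apart. Fibroblast markers (8 of 8 measured, none at the floor in all glands) reached 17.85 in denervated 2 and 19.18 in denervated 5, against 15.39 to 17.11 in the other 8 glands. Macrophage markers (8 of 12) reached 18.25 and 18.29, against 15.21 to 17.45. That sum was carried by its brightest gene, Apoe, at 18.07 and 18.12, against 14.43 to 17.10. Of the other macrophage markers only Aif1 placed both glands above the other 8, at 10.16 and 10.81, against 7.29 to 10.03. The rest overlapped, such as Ctss at 14.10 and 13.72, against 11.56 to 14.36. Myoepithelial markers (9 of 9) reached 16.79 and 16.07, against 13.82 to 15.24, and blood cell markers (3 of 5) 18.45 and 18.50, against 14.76 to 17.44. In the myoepithelial list Tpm2, Myl9 and Oxtr overlapped. Mast cell markers (8 of 9) reached 13.79 and 14.57, against 12.11 to 13.30, and adipocyte markers (5 of 6) 14.31 and 14.32, against 12.66 to 13.66. Of the mast cell genes, Cma1, Cpa3 and Mcpt1 placed both glands above the other 8, and Kit, Tpsb2, Tpsab1, Fcer1a and Ms4a2 overlapped. Of the adipocyte genes, Cfd and Lpl did so, and Lep, Fabp4 and Plin1 overlapped. The summed acinar list (10 of 16) was 19.21 and 20.93 there, against 18.71 to 20.76, so it did not place both of them below the rest. Of its genes, Prlr (8.81 and 8.31, against 9.20 to 10.88) and Chrm3 (11.74 and 11.64, against 11.82 to 12.40) were lower there, as was Bhlha15. Csap1 (16.31 and 16.66, against 7.29 to 13.08) and Slc12a2 (13.25 and 13.63, against 11.38 to 12.11) were higher. The other genes of the acinar list overlapped. Markers of salivary or neighbouring glands (7 of 12) were lower, at 12.90 and 11.94, against 13.57 to 17.87. Of these genes, Egf and Smr3a placed both glands below the other 8, and the rest overlapped. Smr3a did so only just, at 7.29 and 7.47, against 7.66 to 17.81.

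A further 3 arrays, contralateral 1, sham and denervated 1, were alike across all probe sets, with correlations of 0.851 to 0.898 among them and 0.715 to 0.821 with the other 7. They held the secreted nuclease Dnase1 at 19.24, 19.46 and 18.33, against 9.57 to 13.90 elsewhere. The comparisons of denervated glands with all control and with contralateral glands are therefore also given without these arrays. The share of these differences in the results was not tested.

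The first comparison asked how the denervated glands differed from all control glands. Most genes of the list were lower in denervated glands, but none passed the test. Of the 46 genes, each taken by its brightest tested probe set, 35 were lower and 11 higher, with a median log2 difference of -0.29, while over all 3621 tested genes 55.6% were lower and the median was -0.08. The genes lower by more than 1 on the log2 scale were the neuronal syntaxin Stx1a, the SNARE-disassembling ATPase Nsf, the granule-associated Ica1 and the granule GTPases Rab27a and Rab3a, and the 1 gene higher by that much was Rab12. With each array scaled to a common median, the median over all genes moved to 0.04 and that over the list to -0.16, with 28 genes lower. Quantile normalization gave medians of -0.04 and -0.23, with 34 genes lower.

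No probe set of the list had an adjusted p under 0.05 by limma with Benjamini-Hochberg adjustment, nor did any of the 6118 tested probe sets (0%). At an unadjusted p under 0.05 by limma, 285 probe sets on the array were lower (4.66%) and 307 higher (5.02%). Median scaling turned that split into 154 lower and 371 higher. Of the 70 probe sets of the list, 10 were lower (14.3%) and 1 higher (1.43%) at that threshold. All 5 denervated glands lay below all 5 controls for 5 probe sets of the list (7.14%), against 1.03% of tested probe sets, and above them for 1 (1.43%), against 0.637%. With median scaling, 3 of 69 probe sets of the list were lower (4.35%) and 1 higher at an unadjusted p under 0.05 by limma. The shares over all tested probe sets were then 2.52% lower and 6.06% higher.

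**Figure D1:**
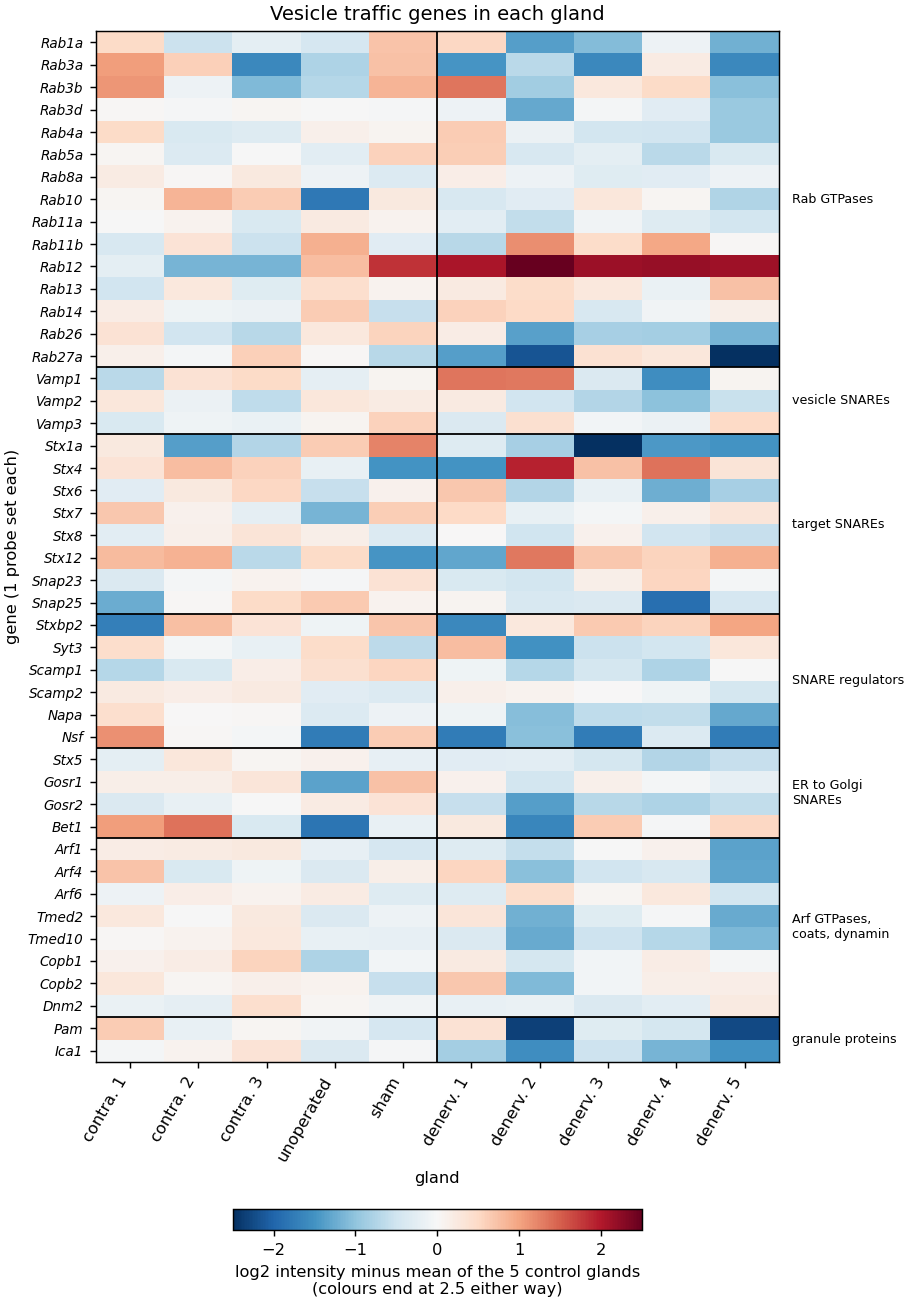
Each row is 1 of the 46 tested genes, by its brightest tested probe set, and each column 1 gland. Colour gives log2 intensity minus the mean of the 5 control glands, with blue for lower, red for higher, and colours ending at 2.5 either way. Blue is densest in the columns of denervated 2 and denervated 5, and the Rab12 row is red in all 5 denervated glands.

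The list's genes were not equally low in all denervated glands. The median deviation from the control mean over the 46 genes was 0.04 in denervated 1, -0.49 in denervated 2, -0.21 in denervated 3, -0.22 in denervated 4 and -0.45 in denervated 5. The same median over all tested genes was 0.11, -0.01, -0.08, -0.15 and 0.02 in these glands. In the controls the median over the list ran from -0.06 in the unoperated gland to 0.14 in contralateral 1, so denervated 1 lay within the control range and the other 4 denervated glands below it. The controls also form the reference mean, which draws their own values toward 0 and narrows that range. Denervated 2 was the lowest of all 10 glands for 11 of the 46 genes, denervated 5 for 9, denervated 4 for 7, denervated 3 for 2 and denervated 1 for 1.

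**Figure D2:**
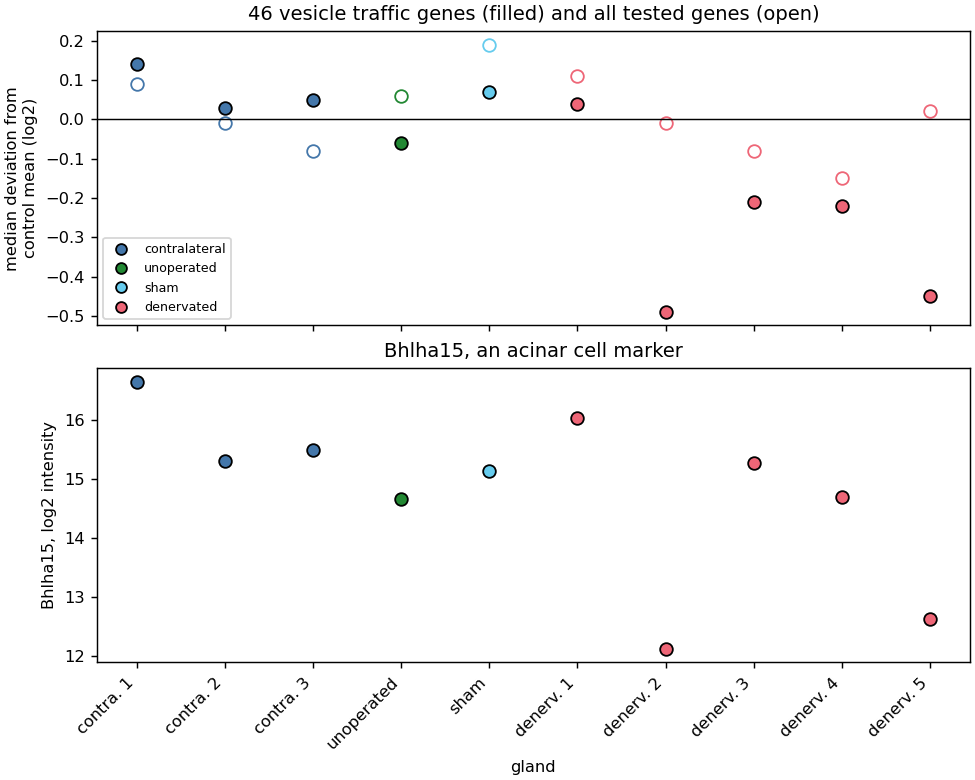
The upper plot gives, for each gland, the median log2 deviation from the control mean over the 46 genes of the list (filled points) and over all 3621 tested genes (open points). The lower plot gives the log2 intensity of Bhlha15 in the same glands. Denervated 2 and 5 had the lowest medians over the list, -0.49 and -0.45, and the lowest Bhlha15, 12.12 and 12.63. Of the other acinar markers, Prlr and Chrm3 were also lowest in these 2 glands, while Csap1 and Slc12a2 were highest there.

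Without denervated 2 and 5, the median over the list was -0.13 against -0.07 over all genes, with 33 of 46 genes lower. The count at an unadjusted p under 0.05 by limma was 2 lower probe sets of 70 (2.86%), against 2.44% of all tested probe sets. A block on 3 sets of arrays was also fitted: contralateral 1, sham and denervated 1, then denervated 2 and 5, then the rest. It gave a median of -0.11, against -0.05 over all genes, with 32 genes lower. At that threshold 5 probe sets of the list were lower (7.14%), against 3.68%. The set of denervated 2 and 5 holds no control, so these glands do not enter the blocked difference. The blocked fit is therefore not a separate check from leaving them out. Without contralateral 1, sham and denervated 1, 9 probe sets of the list were lower (12.9%), against 4.95%. Without denervated 1 alone the count was 19 (27.1%), against 9.53%. Leaving out either denervated 2 or denervated 5 left 5 (7.14%), against 3.58% and 3.68%, and leaving out the sham gland left 6 (8.57%), against 3.45%.

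Among the Rab GTPases, 10 of 15 tested genes were lower in denervated than in control glands, with a median log2 difference of -0.22, and -0.10 with median scaling. Rab12, a GTPase of recycling endosomes and lysosomes, was higher by the largest amount. It was at 8.22, 7.29 and 7.29 in the contralateral glands, 9.23 in the unoperated gland and 10.27 in the sham gland, against 10.50, 10.98, 10.60, 10.63 and 10.57 in the denervated glands. All 5 denervated glands were above all 5 controls, the contralateral glands were the lowest, and 2 of those lay at the floor. The denervated mean was 10.66 ± 0.18 (SD, n = 5) against 8.46 ± 1.29 (SD, n = 5), a log2 difference of 2.20 ± 0.57 (SE) with an adjusted p of 0.434 by limma. Without denervated 2 and 5 it was 2.12 ± 0.72, and blocking on the 3 sets of arrays gave 2.18 ± 0.63.

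Rab3d, the Rab3 form of exocrine granules, stood at 12.90, 12.85 and 12.92 in the contralateral glands, 12.86 in the unoperated and 12.85 in the sham gland, against 12.74, 11.60, 12.83, 12.59 and 11.95 in the denervated glands. Every denervated gland was below every control, but only denervated 2 and 5 lay far below. The difference was -0.53 ± 0.26 with an adjusted p of 0.522 by limma, and -0.16 ± 0.19 without denervated 2 and 5. Rab26, a granule GTPase of exocrine cells, was at 11.94, 11.09, 10.88, 11.83 and 12.13 in contralateral 1 to 3, unoperated and sham, against 11.75, 10.21, 10.75, 10.73 and 10.41. The denervated glands other than denervated 1 lay below all controls. The difference was -0.80 ± 0.36 with an adjusted p of 0.505 by limma, and -0.50 ± 0.39 without denervated 2 and 5.

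The other Rab genes gave smaller or more variable differences. Rab27a, which docks granules at the membrane, was at 8.58, 7.80, 10.33, 10.25 and 7.29 in the denervated glands, against 9.27 to 10.56 in controls, with a difference of -1.11 ± 0.62. Denervated 1, 2 and 5 were low and denervated 3 and 4 lay within the control range. Rab3a, the neuronal Rab3 form, differed by -1.03 ± 0.64, with 3 of 10 glands at the floor. Rab1a, which acts between the endoplasmic reticulum and the Golgi complex, differed by -0.65 ± 0.40. The endosomal Rab5a differed by -0.22 ± 0.34 by one probe set and by -0.79 ± 0.39 by another. Rab4a (-0.28 ± 0.37), Rab8a (-0.13 ± 0.23), Rab10 (-0.22 ± 0.41) and Rab11a (-0.34 ± 0.22), which serve recycling and surface delivery, were each within 2 standard errors of 0 in their brightest probe sets, and a second Rab10 probe set gave -0.45 ± 0.22. Also within 2 standard errors were Rab3b (0.03 ± 0.58), Rab13 (0.30 ± 0.28), Rab14 (0.14 ± 0.30) and Rab11b, whose 3 probe sets gave -0.44 ± 0.64, 0.33 ± 0.44 and 0.38 ± 0.37.

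**Figure D3:**
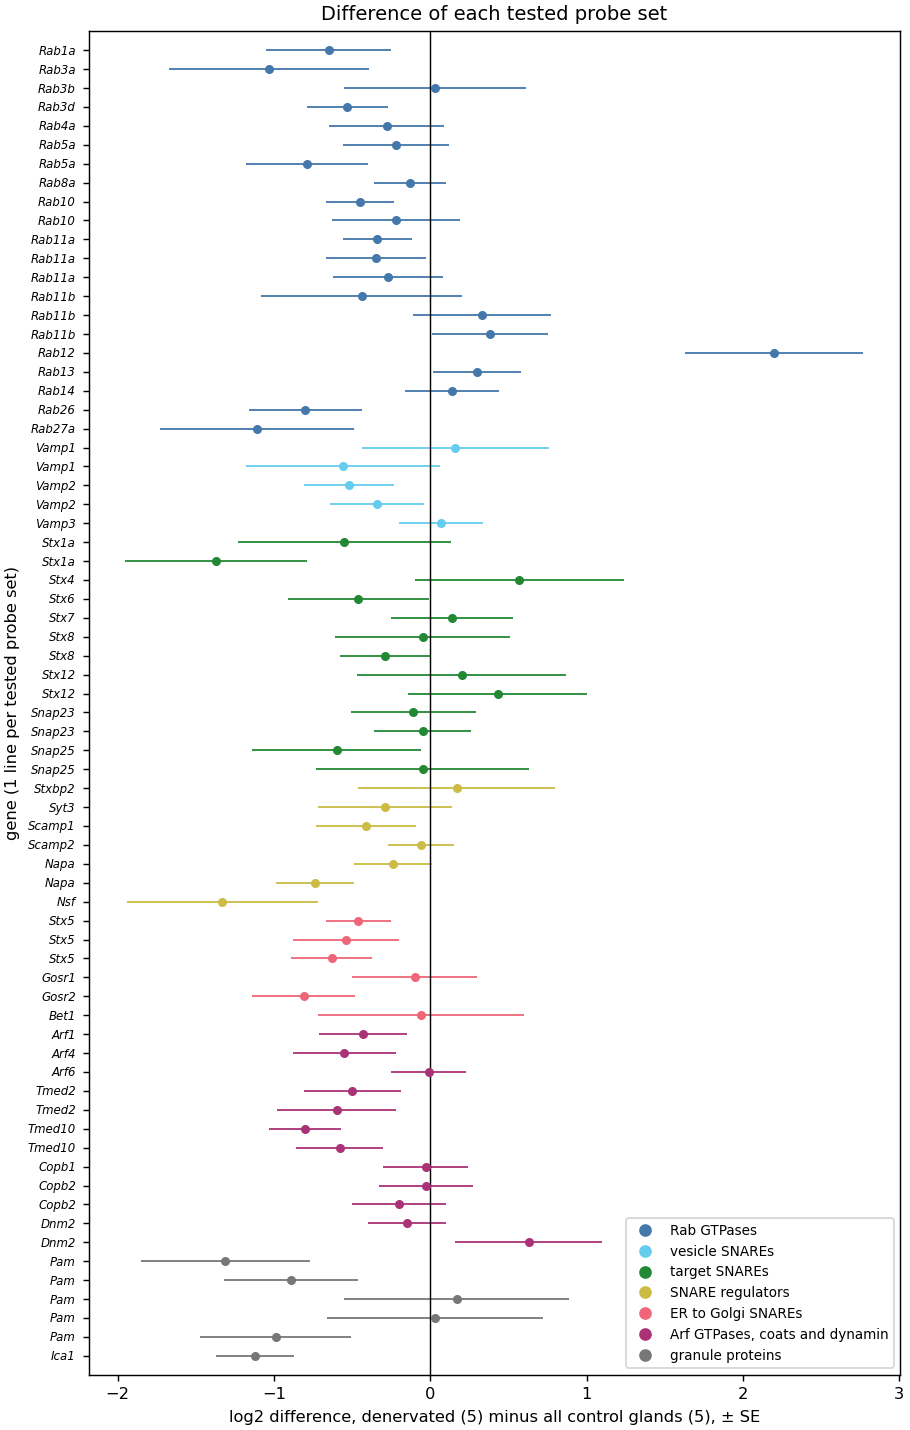
Each point is the log2 difference of 1 of the 70 tested probe sets, 5 denervated minus 5 control glands, with its standard error from limma as a horizontal bar, coloured by role. Most points lie left of 0, Ica1 at -1.12 and Pam at -1.31 among them, and Rab12 lies farthest to the right at 2.20.

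The SNAREs differed in both directions. Of the vesicle SNAREs, Vamp2 differed by -0.52 ± 0.29, Vamp3 by 0.07 ± 0.27, and Vamp1 by 0.16 ± 0.60 and -0.56 ± 0.62 in its 2 probe sets. The median of the 3 genes was 0.07, and -0.28 without denervated 2 and 5. Of the target SNAREs, 5 of 8 genes were lower, with a median of -0.17, and -0.05 with median scaling.

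Stx1a, the syntaxin of nerve endings and endocrine cells, was at 10.61, 8.98 and 9.62 in the contralateral glands, 10.99 in the unoperated and 11.61 in the sham gland, against 10.04, 9.53, 7.62, 8.92 and 8.86 in the denervated glands. The groups overlapped, the unoperated and sham glands being highest and denervated 3 lowest. The difference was -1.37 ± 0.58 with an adjusted p of 0.471 by limma, and -1.50 ± 0.71 without denervated 2 and 5, while a dimmer Stx1a probe set gave -0.55 ± 0.68. Nerve and Schwann cell markers (14 of 17 measured) summed to 12.57 to 13.57 in control and 12.84 to 13.90 in denervated glands. Among them Pmp22 was at 10.56 to 11.17 in control and 10.82 to 12.66 in denervated glands. Nefl, Nefm, Nefh, Prph, Dbh, Gap43 and Npy were at the floor in some glands, so the sum mostly follows brighter genes. Neuroendocrine markers (10 of 12), of which 6 were at the floor in at least 5 glands and Chgb in all 10, summed to 12.57 to 13.61 and 12.36 to 13.59.

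The other target SNAREs were each within 2 standard errors of 0. Stx4, a syntaxin of the basolateral membrane, differed by 0.57 ± 0.67. Stx6 of the trans-Golgi network differed by -0.46 ± 0.45, and the endosomal Stx7, Stx8 and Stx12 by 0.14 ± 0.39, -0.29 ± 0.29 and 0.43 ± 0.57. Snap23, the widely expressed SNAP partner of syntaxins, differed by -0.05 ± 0.31, and the neuronal Snap25 by -0.60 ± 0.54.

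Of the SNARE regulators, 5 of 6 genes were lower, with a median of -0.35, and -0.23 with median scaling. Napa, the SNAP adaptor that brings NSF to spent SNARE complexes, stood at 14.28, 13.87 and 13.90 in the contralateral glands, 13.53 in the unoperated and 13.74 in the sham gland, against 13.76, 12.79, 13.23, 13.25 and 12.58 in the denervated glands. Denervated 1 lay among the controls, the other 4 denervated glands below all of them, and denervated 2 and 5 lowest. The difference was -0.74 ± 0.25, or 1.67-fold lower, with an adjusted p of 0.437 by limma. It was -0.45 ± 0.23 without denervated 2 and 5, and a dimmer Napa probe set gave -0.24 ± 0.25. Nsf, the ATPase itself, was at 10.19, 9.07, 8.99, 7.29 and 9.68 in contralateral 1 to 3, unoperated and sham, against 7.29, 8.0, 7.29, 8.71 and 7.29. The unoperated gland and 3 denervated glands lay at the floor, so these values have no order among themselves. The difference was -1.33 ± 0.61 with an adjusted p of 0.509 by limma, and -0.63 ± 0.71 without contralateral 1, sham and denervated 1. A second Nsf probe set, under the filter and not tested, went the other way, with means of 8.18 in denervated and 7.82 in control glands. There 2 of 10 glands lay at the floor and the groups overlapped.

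The remaining regulators were each within 2 standard errors of 0. Scamp1 and Scamp2, membrane proteins of recycling carriers, differed by -0.41 ± 0.32 and -0.06 ± 0.21. Syt3, of the calcium-sensing synaptotagmin family, differed by -0.29 ± 0.43, and Stxbp2, the Munc18 form of epithelial granule release, by 0.17 ± 0.63.

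In the early secretory pathway, all 4 ER to Golgi SNAREs were lower, with a median of -0.28, although with median scaling 2 of the 4 were lower. Stx5, the Golgi syntaxin, stood at 12.45, 12.98, 12.74, 12.79 and 12.48 in contralateral 1 to 3, unoperated and sham, against 12.41, 12.42, 12.24, 11.96 and 12.11 in the denervated glands. All denervated glands lay below all controls, by a margin that was small for denervated 1 and 2. The difference was -0.46 ± 0.21 with an adjusted p of 0.509 by limma, and -0.49 ± 0.23 without denervated 2 and 5. The 2 other Stx5 probe sets gave -0.63 ± 0.26 and -0.54 ± 0.34. In the first of them the controls were at 12.01, 11.98, 11.68, 11.56 and 11.74 and the denervated glands at 11.71, 10.90, 11.22, 10.81 and 11.17, where denervated 1 alone lay within the control range.

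Gosr2, or membrin, a SNARE of the early Golgi complex, was at 10.35, 10.53, 10.71, 10.92 and 11.05 in contralateral 1 to 3, unoperated and sham, against 10.13, 9.33, 10.01, 9.94 and 10.10. All denervated glands lay below all controls, and denervated 2 stood apart at the bottom. The difference was -0.81 ± 0.33 with an adjusted p of 0.459 by limma, and -0.69 ± 0.35 without denervated 2 and 5. Gosr1 and Bet1, its partners in the Golgi complex, differed by -0.10 ± 0.40 and -0.06 ± 0.66.

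All 8 genes of Arf GTPases, coats and dynamin were lower, with a median of -0.29, although 6 were lower without denervated 2 and 5, with a median of -0.04, and 5 with median scaling. Tmed10, a p24 cargo receptor of COPI and COPII carriers, stood at 16.38, 16.45 and 16.63 in the contralateral glands, 16.17 in the unoperated and 16.16 in the sham gland, against 16.00, 15.09, 15.85, 15.65 and 15.23 in the denervated glands. Every denervated gland lay below every control, with denervated 2 and 5 lowest. The denervated mean was 15.56 ± 0.39 (SD, n = 5) against 16.36 ± 0.20 (SD, n = 5), a difference of -0.80 ± 0.23, or 1.74-fold lower, with an adjusted p of 0.435 by limma. It was -0.53 ± 0.20 without denervated 2 and 5 and -0.53 ± 0.19 when blocked on the 3 sets of arrays. A dimmer Tmed10 probe set gave -0.58 ± 0.28.

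Tmed2, the p24 partner of Tmed10, differed by -0.50 ± 0.31 and -0.60 ± 0.38 in its 2 probe sets. In the brighter one, denervated 2 and 5 were at 14.95 and 14.89, and the other 8 glands lay between 15.79 and 16.45. Arf1 and Arf4, which recruit the COPI coat, differed by -0.43 ± 0.28 and -0.55 ± 0.33, and Arf6 of the plasma membrane by -0.01 ± 0.24. The coat subunits Copb1 and Copb2 differed by -0.03 ± 0.27 and -0.03 ± 0.30, and Dnm2, the GTPase that pinches vesicles off, by -0.15 ± 0.25. A dimmer Dnm2 probe set gave the other sign, 0.63 ± 0.47.

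Both granule proteins tested were lower. Ica1, a BAR domain protein that associates with Golgi membranes and immature granules, stood at 13.25, 13.40 and 13.65 in the contralateral glands, 12.95 in the unoperated and 13.27 in the sham gland, against 12.46, 11.75, 12.78, 12.15 and 11.79 in the denervated glands. Every denervated gland lay below every control. The denervated mean was 12.19 ± 0.44 (SD, n = 5) against 13.30 ± 0.25 (SD, n = 5), a difference of -1.12 ± 0.25, or 2.17-fold lower, the smallest unadjusted p of the list in this comparison. Its adjusted p was 0.434 by limma, and 0.0488, with a difference of -1.19, when denervated 1 was left out, and over the other alternatives it ran from 0.153 to 0.994. Without denervated 2 and 5 the difference was -0.84 ± 0.24 with an adjusted p of 0.994 by limma, and blocking on the 3 sets of arrays gave -0.84 ± 0.23 with 0.583.

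Pam, the enzyme that amidates the ends of secreted peptides, was at 17.19, 16.40 and 16.52 in the contralateral glands, 16.35 in the unoperated and 16.44 in the sham gland, against 16.65, 13.91, 16.20, 16.13 and 13.44 in the denervated glands. Denervated 2 and 5 lay far below all other glands, denervated 3 and 4 just below the controls, and denervated 1 within their range. The difference was -1.31 ± 0.54, or 2.49-fold lower, with an adjusted p of 0.459 by limma. Without denervated 2 and 5 it was -0.25 ± 0.25. The 2 other bright Pam probe sets gave -0.99 ± 0.48 and -0.89 ± 0.43, and 2 dim ones 0.17 ± 0.72 and 0.03 ± 0.69.

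**Figure D4:**
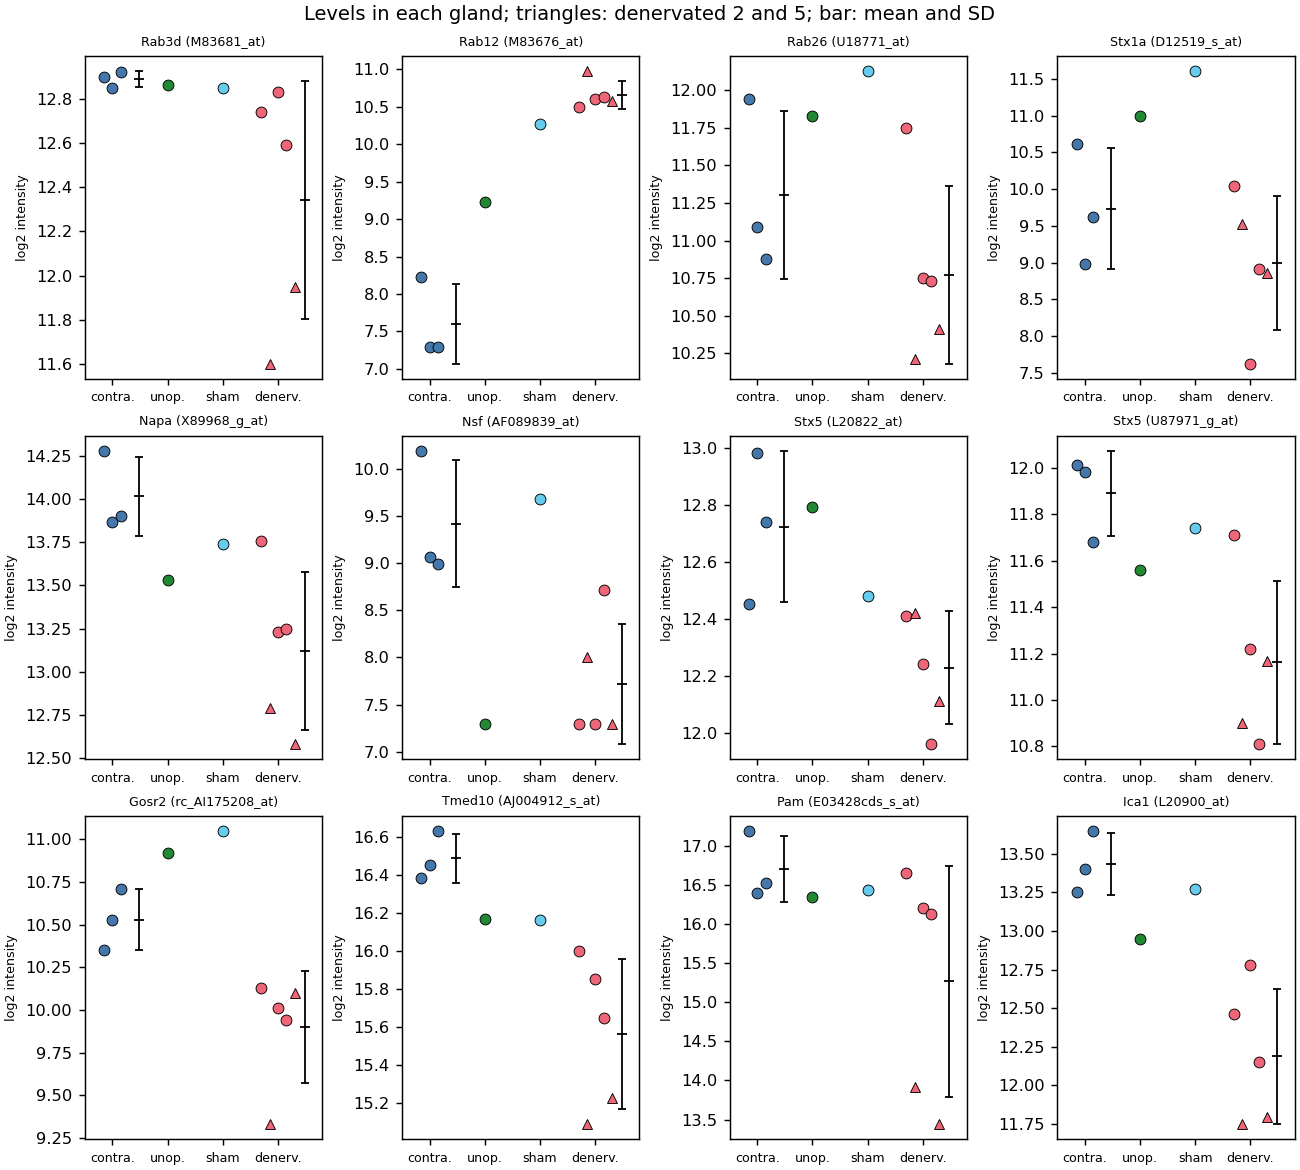
Each plot shows log2 intensity of 1 probe set in the 10 glands, grouped as contralateral, unoperated, sham and denervated, with triangles for denervated 2 and 5 and bars for the mean and SD of the 3 contralateral and the 5 denervated glands. The denervated glands lie below all controls for Ica1, Tmed10, Gosr2, Rab3d and 1 Stx5 probe set and above all of them for Rab12, while for Pam the 2 triangles at 13.91 and 13.44 lie far from the rest.

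**Figure D5:**
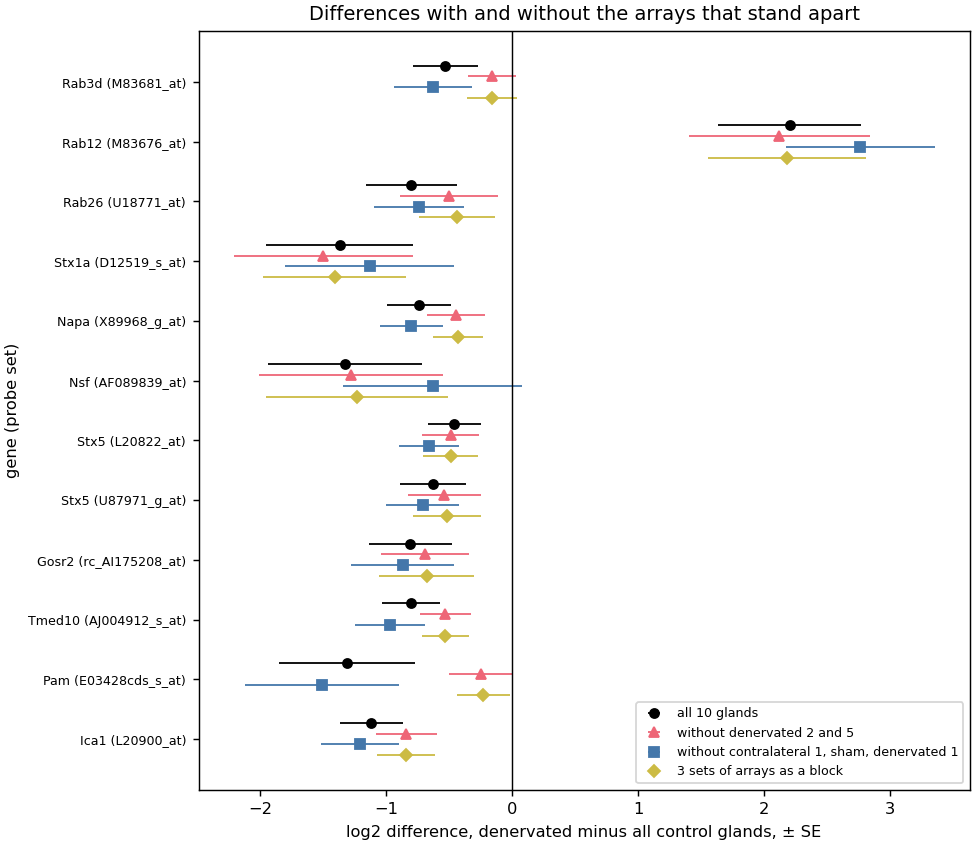
Points give the log2 difference, denervated minus all control glands, with its standard error, for 12 probe sets in 4 fits: all 10 glands, without denervated 2 and 5, without contralateral 1, sham and denervated 1, and blocked on 3 sets of arrays. Pam moves from -1.31 to -0.25 and Rab3d from -0.53 to -0.16 without denervated 2 and 5, while Rab12 stays between 2.12 and 2.76 in the 4 fits. In the blocked fit denervated 2 and 5 form a set without controls and do not enter the difference.

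The second comparison set the denervated glands against the 3 contralateral glands alone, which also served among the controls above. Again 35 of 46 genes were lower, with a median of -0.33, against 51.3% lower and a median of -0.02 over all tested genes. No probe set passed an adjusted p of 0.05 by limma (0% of 6118). At an unadjusted p under 0.05 by limma, 184 of all tested probe sets were lower (3.01%) and 254 higher (4.15%). In the list, 6 of 70 were lower (8.57%), those of Napa, Nsf, Tmed10, Ica1, 1 of Stx5 and 1 of Pam. The 1 higher was Rab12 (1.43%). Without denervated 2 and 5 the median of the list was -0.19, with 34 genes lower and 3 probe sets of the list lower at that threshold (4.29%), against 1.78% of all tested probe sets. Blocking on the 3 sets of arrays gave -0.19 too, with 35 genes and 4 probe sets lower (5.71%), against 2.99%. Without contralateral 1, sham and denervated 1 the median was -0.43, with 7 probe sets lower (10%), against 3.99%. Leaving out denervated 1 alone gave 11 lower probe sets (15.7%), against 5.85%.

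Rab12 differed by 3.06 ± 0.48, or 8.34-fold, from the contralateral glands, with an adjusted p of 0.155 by limma. Since 2 of those 3 glands lay at the floor, the size of this difference depends on the floor, and it was 2.51 with the floor at the 30th percentile of intensities and 3.17 with none. Its adjusted p by limma was 0.0413 without a variance trend and 0.0247 with array weights, and ran from 0.0819 to 0.999 over the other alternatives. Against the unoperated and sham glands Rab12 differed by 0.91 ± 0.55. Ica1 differed by -1.24 ± 0.29, Tmed10 by -0.93 ± 0.27 and Napa by -0.90 ± 0.28 from the contralateral glands, each with an adjusted p of 0.634 by limma. Leaving out denervated 2 and 5 made these differences -0.97 ± 0.26, -0.66 ± 0.21 and -0.61 ± 0.25, and that of Rab12 2.98 ± 0.57.

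All 5 denervated glands lay below all 3 contralateral glands for 10 probe sets of the list (14.3%), against 2.55% of tested probe sets, and above them for 1 (1.43%), against 2.19%. The 10 belonged to Rab3d, Scamp2, Napa, Nsf, Stx5, Gosr1, Gosr2, Arf1, Tmed10 and Ica1. Scamp2 lay between 12.51 and 13.07 in denervated glands and at 13.18, 13.11 and 13.17 in contralateral glands, a narrow gap. Arf1 lay between 14.22 and 15.68, against 15.75, 15.76 and 15.80. Both had unoperated and sham values within the denervated range, so neither was separate from all controls.

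The contralateral glands were also set against the unoperated and sham glands, to see whether the other gland of operated animals differed. The contralateral glands entered the comparisons above too. Of the 46 genes, 28 were higher and 18 lower (39.1%) in contralateral glands, against 59.2% lower over all genes. The median was 0.12, against a median of -0.14 over all genes. The median over all genes was 0.00 with quantile normalization and 0.19 with median scaling, and that over the list 0.22 and 0.45. No probe set passed an adjusted p of 0.05 by limma (0% of 6118). At an unadjusted p under 0.05 by limma, 206 were lower (3.37%) and 93 higher (1.52%), a split of 137 to 157 with quantile normalization and of 88 to 202 with median scaling. Leaving out the sham gland alone turned the split to 72 lower and 133 higher. It was 140 to 150 without the unoperated gland and 133 to 77 without contralateral 3.

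In the list, 3 of 70 probe sets were lower in contralateral glands (4.29%) and 1 higher (1.43%) at that threshold. Without the sham gland the median of the list was 0.11, against -0.11 over all genes, and without the unoperated gland 0.05, against -0.24. Rab12 differed by -2.15 ± 0.60, with an adjusted p of 0.967 by limma. The 2 others that were lower belonged to Rab11a, with -0.97 ± 0.40 and -1.02 ± 0.45, while its brightest probe set was at 12.22, 12.31 and 11.84 in contralateral and 12.44 and 12.31 in unoperated and sham glands. Rab10 was higher by 1.28 ± 0.51 in one probe set, where the unoperated gland was at 11.79 and the sham gland at 13.82, against 13.63, 14.43 and 14.21. The unoperated gland was the lowest of all 10 there.

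With unoperated and sham glands as 1 joint class, 30 of 46 genes were lower in denervated glands (65.2%), against 59.9% of all genes. The median was -0.22, close to the median of -0.17 over all genes. With median scaling these medians were 0.10 and 0.15. No probe set passed an adjusted p of 0.05 by limma (0% of 6118). In the list, 6 of 70 probe sets were lower (8.57%) and 0 higher at an unadjusted p under 0.05 by limma. With median scaling 1 of 69 was lower (1.45%), against 1.59% over the array. Over the array with the deposited scaling, 276 were lower (4.51%) and 207 higher (3.38%) at that threshold. Quantile normalization turned that split into 210 and 291, and median scaling into 97 and 416. Without the sham gland it was 59 lower and 160 higher, without the unoperated gland 187 and 249, and 547 and 376 without denervated 1. Stx1a differed by -2.31 ± 0.70 and Ica1 by -0.93 ± 0.33, each with an adjusted p of 0.616 by limma.

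Other genes of the same pathways, taken from lists that share no gene with the one above, were set beside it for denervated against all control glands. Of 18 tested genes among other Rab GTPases and Rab regulators (51 listed), 9 were lower, the median was 0.03 and none had an unadjusted p under 0.05 by limma, and without denervated 2 and 5, 8 were lower with a median of 0.09. The enzyme subunits that attach lipid to Rab proteins, Rabggtb and Rabggta, differed by 0.62 ± 0.32 and 1.09 ± 0.58, and Rab3c by -1.16 ± 0.65. Of 22 tested genes among other SNAREs and fusion factors (56 listed), 17 were lower and 12 with median scaling, the median was -0.15 and none had an unadjusted p under 0.05 by limma, and without denervated 2 and 5, 14 were lower with a median of -0.15. Vps33a, of the Sec1/Munc18 family, differed by -0.50 ± 0.34, the SNARE Use1 by 0.23 ± 0.20 and the complexin Cplx1 by -0.97 ± 0.83.

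Of 38 tested genes among the exocyst, coats, adaptors and other Arf proteins (69 listed), 28 were lower and 22 with median scaling, with a median of -0.19, and limma gave 4 of them an unadjusted p below 0.05, each lower, against 185 lower of all 3621 tested genes. Of these 38 genes, 22 were lower without denervated 2 and 5, with a median of -0.08. Copz1, a COPI subunit, was at 14.69, 14.54, 14.80, 14.34 and 14.72 in contralateral 1 to 3, unoperated and sham, against 14.07, 14.09, 14.17, 14.30 and 13.20 in denervated glands. All denervated glands lay below all controls, denervated 4 only just, and the difference was -0.65 ± 0.23 with an adjusted p of 0.437 by limma. Sec31a, of the COPII coat, differed by -0.71 ± 0.28 and Bin1, a BAR domain protein of membrane curvature, by -0.65 ± 0.26.

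Of 13 tested genes among other granule proteins and processing enzymes (20 listed), 8 were lower, with a median of -0.20, and limma gave 1 of them, lower, an unadjusted p below 0.05, against the same 185 of 3621 genes. Of these 13 genes, 9 were lower without denervated 2 and 5, with a median of -0.16. That 1 gene was Furin, the Golgi protease that cleaves proproteins. It stood at 17.43, 17.34, 17.53, 17.62 and 17.59 in contralateral 1 to 3, unoperated and sham, against 17.04, 14.88, 17.02, 17.02 and 15.02 in denervated glands. All denervated glands lay below all controls, and denervated 2 and 5 far below, as for Pam. The difference was -1.31 ± 0.43 with an adjusted p of 0.437 by limma. Scg5, the chaperone of a prohormone convertase, differed by -1.07 ± 0.52, and the Golgi protease Pcsk7 by -0.61 ± 0.33.

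The 6 genes under the filter were not tested, since the mean over the 10 glands of each of their probe sets was under it. Chgb, a core protein of neuroendocrine granules, was at the floor in all 10 glands, and Stx3, the apical syntaxin of secretory epithelia, in 6, with values up to 8.87. Syt1, the calcium sensor of nerve endings, was at the floor in 6 glands and reached 9.47 in denervated 1 and 10.22 in denervated 5. Rab2a was at the floor in 5 glands and reached 8.43. Cpe, a processing enzyme of peptide granules, was at the floor in all 3 contralateral glands and in denervated 4, at 10.16 in the unoperated, 9.59 in the sham gland, and at 7.69, 9.32, 8.38 and 7.47 in denervated 1, 2, 3 and 5. Syt7, a calcium sensor of granule release, was at 7.29, 7.95, 9.12, 9.33 and 9.62 in contralateral 1 to 3, unoperated and sham, against 7.44, 7.29, 8.95, 7.29 and 8.03. The groups overlapped for each of these 6 genes.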

How the data were processed

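Total RNA of 10 glands was hybridised to arrays, and the authors deposited a linear intensity for each of 8799 probe sets on each array. Per the deposited values, arrays had been scaled alike: with 2% trimmed at each end, array means ran from 2505 to 2507, so this scaling was kept. The software and its settings are not stated in the labels. Intensities under their 20th percentile, 156.2, were raised to it and log2 was taken of the deposited values. After dropping 59 control probe sets, 8740 remained, and the test kept 6118 whose mean log2 intensity exceeded the 30th percentile. Symbols came from the platform annotation, updated through gene IDs in a RefSeq table of GRCr8 (6985 of 7006 single-symbol probe sets matched, 308 carried several symbols and 1426 none). The 2 probe sets listed for both Rab1b and Rab1a were set aside.

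Tests ran in R 4.3.3 through the functions lmFit and eBayes of limma 3.58.1, trend on, two-sided, and Benjamini-Hochberg adjusted p over all 6118 probe sets at 0.05, and were checked on simulated data. One fit had 2 classes, denervated and control, and another 3, with unoperated and sham glands joined. Every gene of the list is named. Levels in every gland are given for probe sets with an unadjusted p under 0.05 against all control or contralateral glands, or whose denervated glands do not overlap the controls. Up to 3 genes with the smallest p are named from each list of related genes. A gene's brightest tested probe set stands for it in counts and medians, and 18 genes had several. The members and lists were chosen with earlier results of these data known. Marker lists are log2 of summed intensities. Alternatives were other scalings, floors, filters and variance models, the gland numbers as a block, and leaving out glands. The sets of arrays were defined from these data and their alternatives added after the data were seen. Promoters came from RefSeq (GRCr8), searched with Python 3.11.15, and figures were drawn with matplotlib 3.10.9.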

Additional observations from a re-analysis of the deposited data

Results flagged for a closer look

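In the 5 denervated glands, 1 gland stood apart from the others for 4 of the 70 tested probe sets of the list, by the gap to its nearest neighbour as a share of the whole range (critical value 0.71 for 5 samples, which chance passes in about 1 group in 20). The count of 4 in 70 is near that rate, so it is not read as a result about these genes. The share was 0.726 for Rab12, where denervated 2 was highest at 10.98. It was 0.761 for Gosr2, where denervated 2 was lowest at 9.33. For Stxbp2 it was 0.724, with denervated 1 lowest at 7.39, and for Snap25 it was 0.742, with denervated 4 lowest, at the floor.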

How the results depend on the processing

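Across the alternatives, 550 recomputed differences of the 12 named probe sets all kept their direction, and 3 passed the threshold: Rab12 against contralateral glands with the variance trend off (adjusted p 0.0413), the same with array weights (0.0247), and Ica1 against all control glands without denervated 1 (0.0488), all by limma. Rab12 was also the 1 probe set on the array to pass against contralateral glands under each of those first 2 settings. Leaving out 1 gland at a time gave 0 to 70 probe sets on the array past the threshold against all control glands (70 without denervated 1), 0 to 1 for contralateral against unoperated and sham glands (1 without the unoperated gland), and 0 to 5 for denervated against unoperated and sham glands (3 without the unoperated gland, 5 without denervated 1). For that last comparison the median difference of the list ran from -0.45 without the unoperated gland to -0.15, and was -0.41 without denervated 1. Without the filter, 7 probe sets passed for contralateral and 13 for denervated against unoperated and sham glands. Without contralateral 1, sham and denervated 1, 13 passed for denervated against unoperated and sham glands. Median scaling moved the median of the list to 0.45 for contralateral against unoperated and sham glands, with 11 genes lower, and to 0.10 for denervated against those glands. Against all control glands the median was -0.13 without denervated 2 and 5, and -0.11 when blocked on the 3 sets of arrays, where 1 probe set passed. The causes were not tested.

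The numbers shared by contralateral and denervated glands were not taken as pairs, since the labels do not say that same-numbered glands came from 1 animal. Deviations of same-numbered glands correlated at 0.488, 0.0369 and 0.164. These correlations cannot settle pairing, as contralateral 1 and denervated 1 also belong to the set of arrays that were alike. With the replicate block, the median of the list was -0.29 against all control glands, -0.25 against contralateral glands, -0.06 for contralateral and -0.42 for denervated against unoperated and sham glands, and 0 probe sets passed in each. Contralateral 1 correlated best with denervated 1 (0.488), contralateral 2 with denervated 4 (0.183) and contralateral 3 with denervated 4 (0.232).

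The unoperated and sham classes hold 1 gland each, so their own spread is unknown. Values at the floor understate differences, and 56 of the 70 tested probe sets had no gland at it.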
